A study of Mus musculus with 10 samples.

Results

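NRF2, the protein of Nfe2l2, is a transcription factor that switches on genes of glutathione synthesis, thioredoxin recycling and quinone reduction. In resting cells KEAP1 holds NRF2 and directs its degradation, and oxidants or electrophiles that modify KEAP1 let NRF2 accumulate. The autophagy receptor p62, made from Sqstm1, can also bind KEAP1, and in liver the pathway is best known for its role against toxic and cholestatic injury. NRF2 is controlled largely as a protein, which RNA sequencing does not measure. The genes described here were 10 named genes of this pathway, namely Nfe2l2, Keap1, Nqo1, Gclc, Gclm, Srxn1, Txnrd1, Sqstm1, Gsr and Osgin1. They were found by symbol among 59408 gene models, 1 model for each gene, and all 10 passed the filter on low values that left 18390 models for testing.

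Whole livers of 10 wild-type C57BL/6 mice, taken at day 35, were profiled by bulk RNA sequencing in 3 groups. The PSC group (libraries 11, 13 and 14) modelled primary sclerosing cholangitis, a scarring disease of the bile ducts, with food containing 0.089% 3,5-diethoxycarbonyl-1,4-dihydrocollidine (DDC). It was fed for 2 weeks and, after a break of 1 week, again for 1 week. The PBC group (libraries 7, 8 and 9) modelled primary biliary cholangitis, an autoimmune disease of small bile ducts. These mice received 100 µg of 2-octynoic acid coupled to bovine serum albumin, in complete (day 0) or incomplete Freund's adjuvant, intraperitoneally on days 0, 14 and 28, and 2 µg of α-galactosylceramide, an activator of natural killer T cells, intravenously on the first 2 of these days. The control group (libraries 1 to 4) was untreated and received neither adjuvant nor glycolipid. By this schedule the DDC feeding ended before collection. Whether DDC, duct injury or another feature of a model goes with a difference cannot be told apart in this design. In bulk liver, fewer cells of a type and less RNA per cell cannot be told apart either.

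Depth was 55.3 to 95.4 M (mega) reads in PSC, 44.3 to 51.1 M in PBC and 38.3 to 69.4 M in control libraries. Mitochondrial models took 13.7% of the reads of control 2 and at most 8.67% elsewhere. The lowest count behind any member was 215 reads, for Nqo1 in PBC 7 (exact Poisson 95% interval 187 to 246, counting error only). Levels are normalised reads with SD over 3 PSC, 3 PBC and 4 control livers. A difference is a log2 fold change of normalised reads plus 1, and it was called where the adjusted p of limma was under 0.05. The p-values set each difference against the spread between livers within groups, with 1 estimate of spread shared by the 3 groups.

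NRF2 binds DNA as a pair with a small MAF protein at the antioxidant response element. Core forms of it were therefore searched on both strands of the 250 bases before each RefSeq start site (GRCm38.p6), TGACNNNGC and TGAGNNNGC, together with TGANTCA, the site of the related AP-1 factors, which can overlap the second form. Windows were found for 8 of the 10 genes, Gclc and Gsr having none in the RefSeq table used. At least 1 core was present in windows of Nfe2l2, Srxn1, Gclm, Osgin1 and Txnrd1, so in 5 of 8 genes, while either core occurred in 23.0% of all 32851 windows. TGACNNNGC occurred in 10.2%, TGAGNNNGC in 14.4% and TGANTCA in 6.75% of these windows. Txnrd1 had 3 start sites and thus 3 chances of a match. A match is a stretch of letters and not a measured binding site.

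The windows of the 3 genes that were higher in PSC livers are shown with those of Osgin1, which shares letters with Srxn1, and of Nqo1, the classical reporter of the pathway. Each is written 5′ to 3′ on the strand of its gene, from 250 bases before the start site to 1 base before it, with matches in capitals. Their positions are chr2:152105274-152105523 (plus strand) for Srxn1, chr2:75704664-75704913 (minus strand) for Nfe2l2, chr11:50210821-50211070 (minus strand) for Sqstm1, chr8:119436897-119437146 (plus strand) for Osgin1 and chr8:107403206-107403455 (minus strand) for Nqo1.
Srxn1: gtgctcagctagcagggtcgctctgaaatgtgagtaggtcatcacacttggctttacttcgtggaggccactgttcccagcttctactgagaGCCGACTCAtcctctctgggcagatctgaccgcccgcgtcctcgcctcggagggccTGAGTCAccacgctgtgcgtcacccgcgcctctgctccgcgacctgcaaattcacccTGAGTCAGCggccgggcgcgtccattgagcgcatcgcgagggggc
Nfe2l2: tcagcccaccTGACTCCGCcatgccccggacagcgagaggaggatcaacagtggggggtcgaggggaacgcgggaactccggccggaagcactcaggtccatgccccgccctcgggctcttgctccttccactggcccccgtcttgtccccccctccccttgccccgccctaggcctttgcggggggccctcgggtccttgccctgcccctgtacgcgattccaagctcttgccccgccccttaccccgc
Sqstm1: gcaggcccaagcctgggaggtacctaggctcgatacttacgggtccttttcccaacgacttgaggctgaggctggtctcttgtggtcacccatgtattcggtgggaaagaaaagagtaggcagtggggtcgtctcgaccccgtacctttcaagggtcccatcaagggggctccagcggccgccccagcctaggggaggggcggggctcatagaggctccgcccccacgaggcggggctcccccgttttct
Osgin1: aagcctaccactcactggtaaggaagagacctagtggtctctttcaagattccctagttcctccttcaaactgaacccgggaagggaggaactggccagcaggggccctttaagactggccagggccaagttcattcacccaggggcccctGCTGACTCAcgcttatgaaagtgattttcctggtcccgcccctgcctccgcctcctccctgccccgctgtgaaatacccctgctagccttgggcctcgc
Nqo1: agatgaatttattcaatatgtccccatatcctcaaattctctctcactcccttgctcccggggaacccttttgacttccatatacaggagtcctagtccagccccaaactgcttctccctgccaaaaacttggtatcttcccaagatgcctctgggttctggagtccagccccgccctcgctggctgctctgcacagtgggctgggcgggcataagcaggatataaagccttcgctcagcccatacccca
Srxn1 held 3 matches. Its TGAGTCAGC lay 45 to 37 bases before the start and joins an AP-1 site to a core, GCCGACTCA at 158 to 150 is a core on the opposite strand, and TGAGTCA at 102 to 96 is an AP-1 site alone. Osgin1 held GCTGACTCA at 99 to 91, which reads TGAGTCAGC on the opposite strand. This 9-letter form, singled out after the matches were seen, occurred in 114 of the 32851 windows, or 0.347%. Nfe2l2 held TGACTCCGC at 240 to 232. Outside the printed windows, Gclm held GCACCGTCA at 134 to 126 and a Txnrd1 window held GCTTTGTCA at 92 to 84. No match to the searched forms was found in the windows of Sqstm1, Nqo1 and Keap1. Sequence outside the 250 bases was not searched, so a gene without a match may still hold the element elsewhere.

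The first comparison asked how livers of the DDC model differed from untreated livers. Nfe2l2, Srxn1 and Sqstm1 rose in PSC livers, by 1.49 to 1.56 times, and every PSC library lay above every control library for each of them. The other 7 genes were not called, among them Nqo1 and both subunits of the enzyme that limits glutathione synthesis. Thus 3 of the 10 members were called higher and 0 lower, where 8.25% of all tested genes were called higher and 6.48% lower. At an unadjusted p under 0.05 the members counted 4, and the share of all tested genes at that p was not computed in any comparison. Both edgeR and DESeq2 called 3 members higher and 0 lower. Over all tested genes edgeR called 1436 higher and 1176 lower, and DESeq2 1878 and 1929. The median difference over the 10 genes was -0.0039, against 0.06 over all tested genes, and 5 genes had a positive and 5 a negative difference. All libraries lay above the controls for 3 members and below them for 0, against 15.9% and 15.6% of all tested genes.

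**Figure D1:**
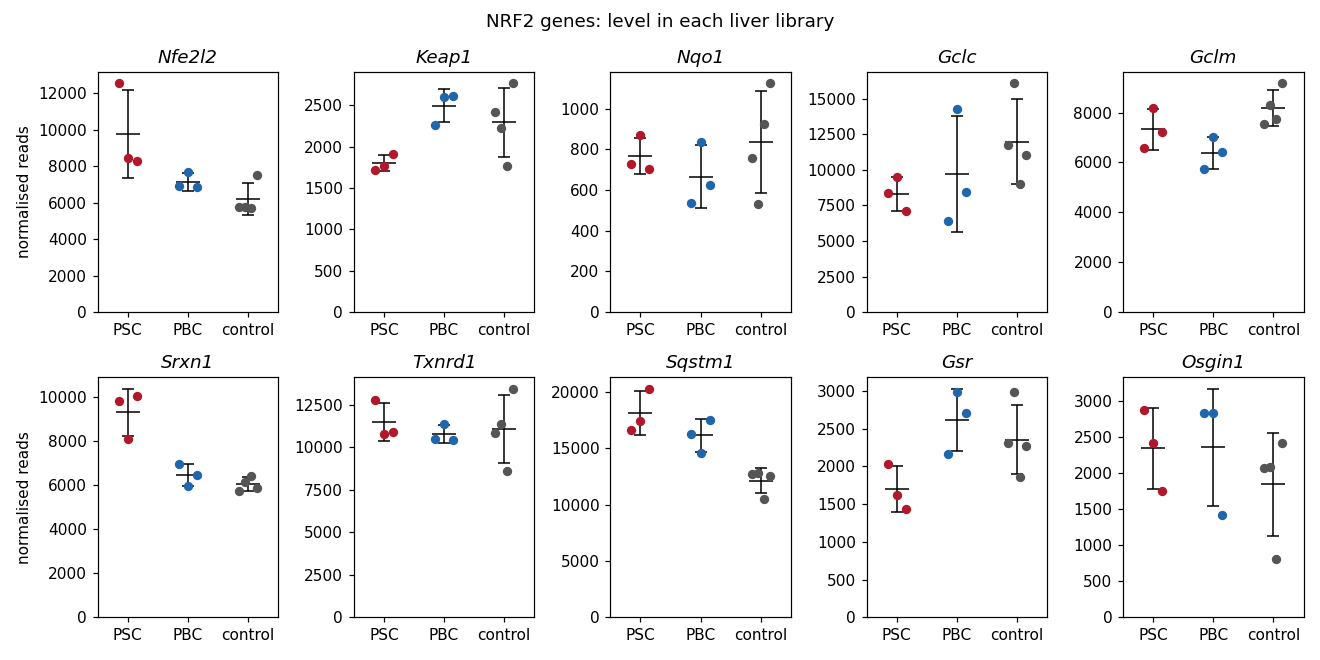
Normalised reads of the 10 genes in each liver library, with 1 panel per gene, points for libraries, and bars for the mean and SD of 3 PSC, 3 PBC and 4 control livers. The PSC points of Nfe2l2, Srxn1 and Sqstm1 lie above all control points, while those of Nqo1 and Txnrd1 lie within the control range.

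Among the regulators, Nfe2l2 itself (GSMG0022999, chr2:75675513-75704666 on mm10) had 12554, 8436 and 8307 normalised reads in PSC 11, 13 and 14, 6898, 7681 and 6839 in PBC 7, 8 and 9, and 5769.5, 5757, 5735 and 7501 in controls 1 to 4. PSC 11 was the highest of all libraries, and control 4, the highest control, lay within the PBC range. The means were 9766 ± 2416 in PSC, 7139 ± 470.0 in PBC and 6191 ± 874 in control livers. In PSC against control the difference was 0.64 (SE 0.19, 95% interval 0.23 to 1.06, adjusted p = 0.0410). This call did not hold without PSC 11, where the difference was 0.45 (adjusted p = 0.184). It was also lost without PSC 13 or 14, without PBC 7, and without control 1, 2 or 3 (adjusted p = 0.0533 to 0.184 with PSC 11 included). With no filter, TMM scaling or equal totals the adjusted p was 0.0599, 0.0561 and 0.0975.

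Keap1 (GSMG0040437, chr9:21229730-21239332), the repressor of NRF2, had 1725, 1769 and 1908 normalised reads in PSC 11, 13 and 14, 2268, 2607 and 2617 in PBC 7, 8 and 9, and 2425, 2222, 1770.3 and 2768 in controls 1 to 4. The PSC values were close together and low, and only control 3, the shallowest library, reached into their range. Means were 1801 ± 95.5 in PSC, 2497 ± 199 in PBC and 2296 ± 417 in control livers. The PSC difference from control was -0.33 (-0.73 to 0.06) and was not called (adjusted p = 0.247, limma). Against PBC, the PSC livers were lower in every library, with a difference of -0.47 (-0.89 to -0.04, adjusted p = 0.226) that was not called either.

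Since Nfe2l2 and Keap1 had fitted differences of opposite sign in PSC, although that of Keap1 was not called, the ratio of their reads was formed within each library, a choice made after the values were seen and therefore given with no test. This ratio does not depend on how libraries are scaled. It was 7.28, 4.77 and 4.35 in PSC 11, 13 and 14, 3.04, 2.95 and 2.61 in PBC 7, 8 and 9, and 2.38, 2.59, 3.24 and 2.71 in controls 1 to 4. All PSC livers lay above all PBC and control livers, which overlapped. The share of other gene pairs whose ratio separates in this way was not computed. For single genes, every PSC library lay above every control in 15.9% of those tested. The means were 5.47 ± 1.58 in PSC, 2.87 ± 0.23 in PBC and 2.73 ± 0.37 in control livers. PSC 11 alone stood well above the other PSC libraries, but PSC 13 and 14 were also above the highest control.

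**Figure D2:**
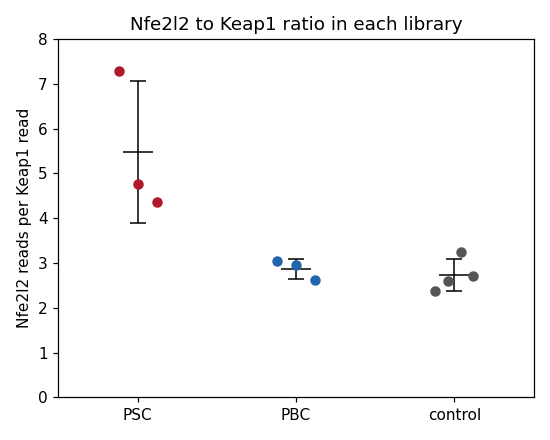
Nfe2l2 reads per Keap1 read in each library, with points for libraries and bars for the mean and SD of 3 PSC, 3 PBC and 4 control livers. The PSC libraries lie between 4.35 and 7.28, and all PBC and control libraries at or under 3.24.

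Sqstm1 (GSMG0006611, chr11:50199366-50210820) codes for p62, which delivers ubiquitinated cargo to autophagosomes and competes with NRF2 for KEAP1. It had 16638, 17400.2 and 20309 normalised reads in PSC 11, 13 and 14, 16301, 14621 and 17552 in PBC 7, 8 and 9, and 12691, 12819, 10497 and 12570.1 in controls 1 to 4. Every library of both cholangitis groups lay above every control. Means were 18116 ± 1937 in PSC, 16158 ± 1471 in PBC and 12144 ± 1103 in control livers. The difference from control was 0.58 in PSC (SE 0.17, 0.21 to 0.94, adjusted p = 0.0373). The PBC value was 0.41 (SE 0.17, 0.05 to 0.78, adjusted p = 0.136), which was not called. Between PSC and PBC the difference was 0.16 with an interval of -0.23 to 0.55. The PSC call was lost without any single PSC or control library (adjusted p = 0.0514 to 0.183), while the difference stayed between 0.49 and 0.64. With no filter or equal totals the adjusted p was 0.0673 and 0.0583.

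Srxn1 (GSMG0021967, chr2:152105524-152111375) codes for sulfiredoxin, which returns overoxidised peroxiredoxins to their active form. It had 9789, 8077 and 10031 normalised reads in PSC 11, 13 and 14, 6968, 5960.4 and 6433 in PBC 7, 8 and 9, and 5736, 6136, 6422 and 5848 in controls 1 to 4. The PSC libraries stood apart from the other 7, among which PBC and control livers overlapped. Its means were 9299 ± 1065 in PSC, 6454 ± 504 in PBC and 6035 ± 308 in control livers, with the smallest relative spread among controls of the 3 called genes. The PSC difference from control was 0.62 (SE 0.16, 0.27 to 0.97, adjusted p = 0.0226), and that from PBC was 0.52 (SE 0.17, 0.15 to 0.89, adjusted p = 0.135). The call against control was lost without PSC 11, PSC 14 or control 1 (adjusted p = 0.0879, 0.123 and 0.0656). DESeq2 called the difference from PBC (adjusted p = 0.0243), and limma did not.

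Txnrd1 (GSMG0003326, chr10:82833951-82897724), the cytosolic thioredoxin reductase, had 12746, 10775 and 10907 normalised reads in PSC 11, 13 and 14, 10499, 11358 and 10409 in PBC 7, 8 and 9, and 10862, 11337, 8611 and 13445 in controls 1 to 4. Controls 3 and 4 bracketed all other libraries, so that the groups overlapped fully. Its means of 11476 ± 1102 in PSC, 10755 ± 524 in PBC and 11064 ± 1983 in control livers gave differences from control of 0.07 in PSC (-0.33 to 0.46) and -0.02 in PBC (-0.42 to 0.37). Neither was called (adjusted p = 0.840 and 0.951, limma). A PSC change as large as that of Srxn1 lay outside the interval of Txnrd1, although both genes serve the thioredoxin system.

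Of the glutathione genes, Gclc (GSMG0039830, chr9:77754533-77794489) codes for the catalytic subunit of glutamate-cysteine ligase, the limiting step of glutathione synthesis. It had 8374, 9498 and 7126 normalised reads in PSC 11, 13 and 14, 6381, 14274 and 8475 in PBC 7, 8 and 9, and 11768, 16091, 9015 and 11059.5 in controls 1 to 4. PBC 8 and control 2 were high within their groups, and the groups overlapped. Means were 8332 ± 1186 in PSC, 9709.9 ± 4089 in PBC and 11984 ± 2977 in control livers, and the difference from control was -0.50 in PSC (-1.08 to 0.07) and -0.35 in PBC (-0.93 to 0.22). Neither passed the test (adjusted p = 0.229 and 0.434, limma).

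Gclm (GSMG0024878, chr3:122245557-122267215), the modifier subunit of the same enzyme, had 6570.3, 8199 and 7221 normalised reads in PSC 11, 13 and 14, 5742, 7001 and 6418 in PBC 7, 8 and 9, and 7559.7, 8305, 7738 and 9171 in controls 1 to 4. All PBC libraries lay below all controls, while PSC 13 reached into the control range. The means were 7330.0 ± 819.7 in PSC, 6387 ± 630.0 in PBC and 8193 ± 725 in control livers. The difference from control was -0.16 in PSC (-0.52 to 0.20, adjusted p = 0.549) and -0.36 in PBC (-0.72 to -0.0015, adjusted p = 0.187), neither called. The ratio of Gclc to Gclm reads was 1.14 ± 0.14 in PSC, 1.49 ± 0.49 in PBC and 1.47 ± 0.36 in control livers, and the groups overlapped.

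Gsr (GSMG0037175, chr8:33653238-33698161), the glutathione reductase that regenerates glutathione from its oxidised form, had 2036, 1621 and 1435 normalised reads in PSC 11, 13 and 14, 2161, 2979 and 2702 in PBC 7, 8 and 9, and 2316, 2981, 1862 and 2264 in controls 1 to 4. PSC 13 and 14 were the lowest of all libraries, and PSC 11 lay between control 3 and the other controls. Its means were 1697 ± 308 in PSC, 2614 ± 416 in PBC and 2356 ± 463 in control livers. The PSC difference was -0.47 against control (-0.92 to -0.02, adjusted p = 0.150) and -0.63 against PBC (-1.11 to -0.15, adjusted p = 0.162), neither called. Every PSC library was below every PBC library.

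Nqo1 (GSMG0038886, chr8:107388225-107403273), a quinone reductase and the most used reporter of NRF2 activity, had 727, 870.2 and 705 normalised reads in PSC 11, 13 and 14, 535, 835 and 626 in PBC 7, 8 and 9, and 758, 533, 922 and 1125 in controls 1 to 4. Control 2 held the lowest and control 4 the highest of the 10 values, so that the controls spanned both cholangitis groups. Means were 767 ± 89.7 in PSC, 665 ± 154 in PBC and 834 ± 251 in control livers, and the PSC difference from control was -0.07 (-0.63 to 0.48, adjusted p = 0.875). An increase as large as the fitted 0.62 of Srxn1 lay above that interval, but increases up to 0.48 and decreases down to -0.63 lay within it. In PBC against control the difference was -0.30 (-0.86 to 0.26, adjusted p = 0.497).

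Osgin1 (GSMG0037886, chr8:119437162-119446255), an oxidative stress induced growth inhibitor, had 2872, 2413 and 1752 normalised reads in PSC 11, 13 and 14, 2827, 2828 and 1416 in PBC 7, 8 and 9, and 2076, 2088, 805 and 2417 in controls 1 to 4. Within each group 1 library was low, namely PSC 14, PBC 9 and control 3. Means were 2346 ± 563 in PSC, 2357 ± 815 in PBC and 1847 ± 712 in control livers. With the widest error of the 10 genes, the difference from control was 0.43 in PSC (-0.35 to 1.22, adjusted p = 0.460) and 0.40 in PBC (-0.39 to 1.18, adjusted p = 0.524). A change of the size called for Nfe2l2 was therefore not resolved for this gene. It shares the 9-letter promoter form, singled out after the matches were seen, with Srxn1, which was called. Nfe2l2 and Sqstm1, which were also called, lacked this form in their windows. Whether the form goes with a difference was not tested.

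In PBC against control, which asked how the autoimmune model differed from untreated livers, limma called 0 of the 10 genes, where 7.6% of all tested genes were called higher and 2.34% lower. At an unadjusted p under 0.05 there were 2, Sqstm1 and Gclm. Both edgeR and DESeq2 also called 0 of the 10, where they called 1225 and 1660 of all tested genes higher and 345 and 909 lower. The median difference was 0.12, against 0.01 over all tested genes. All PBC libraries lay above the controls for Sqstm1 alone and below them for Gclm alone, against 12.7% and 6.89% of tested genes. In PSC against PBC limma also called 0 members, where 1.13% of tested genes were called higher and 1.11% lower. Of the 3 members with an unadjusted p under 0.05, Srxn1 was higher and Gsr and Keap1 were lower in PSC. All PSC libraries lay above the PBC libraries for Srxn1 and Nfe2l2 and below them for Gsr and Keap1, against 12.6% and 14.6% of tested genes. edgeR called 0 members and DESeq2 called 1, Srxn1, where they called 213 and 623 of all tested genes higher and 203 and 590 lower. The comparisons with control share the same 4 control libraries.

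**Figure D3:**
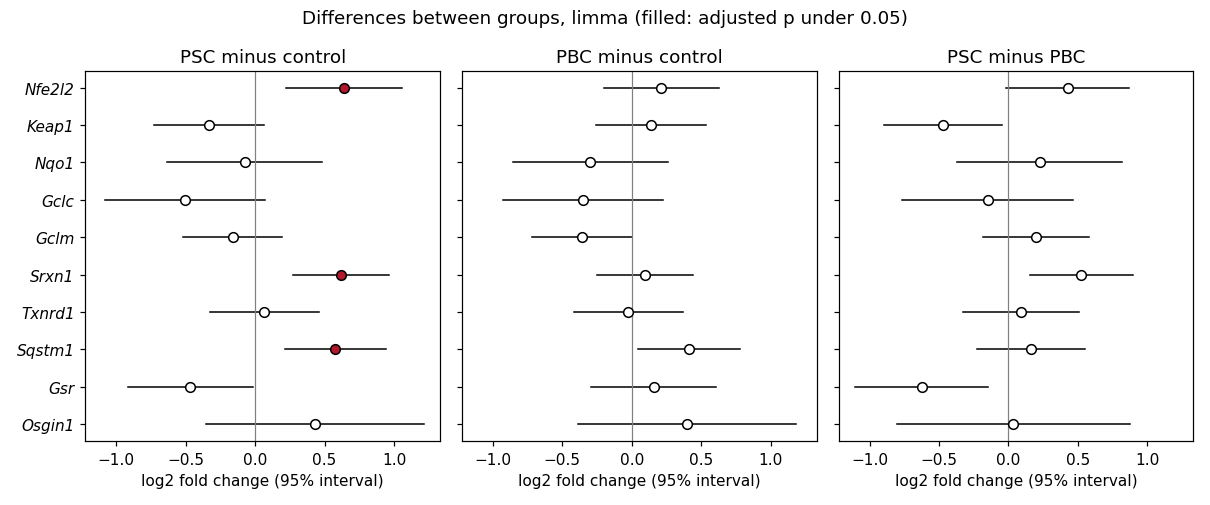
Log2 fold change of each gene with its 95% interval from limma, for PSC minus control, PBC minus control and PSC minus PBC. Filled points, which are Nfe2l2, Srxn1 and Sqstm1 in the left panel, have an adjusted p under 0.05, and no point of the other panels is filled.

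The 3 calls held under other settings and with libraries left out to different extents. Under 20 other settings, which changed the pseudocount, filter, scaling or tool or left out 1 library, the sign was kept in 20 of 20 for each gene. Srxn1 was called in 17, Sqstm1 in 11 and Nfe2l2 in 10 of them. The number of members called higher was 0 without PSC 11, PSC 14 or control 1, and 1 without PSC 13, control 2 or control 3. It was 2 without PBC 7 or control 4. Leaving out a library also makes its group smaller. Higher calls over all tested genes were 807, 680 and 1058 without PSC 11, PSC 14 and control 1, against 1518 with all 10 libraries. Quality weights for the libraries kept the 3 calls and added 3 lower ones in PSC, Gsr, Keap1 and Gclc (adjusted p = 0.0100, 0.0179 and 0.0326). Under the same weights 3899 of all tested genes were called higher and 3404 lower in PSC, against 1518 and 1192 without weights. Control 3, the shallowest library, was the lowest control for 7 of the 10 genes and control 4 the highest for 6, and PBC 8 was the highest PBC library for 7.

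**Figure D4:**
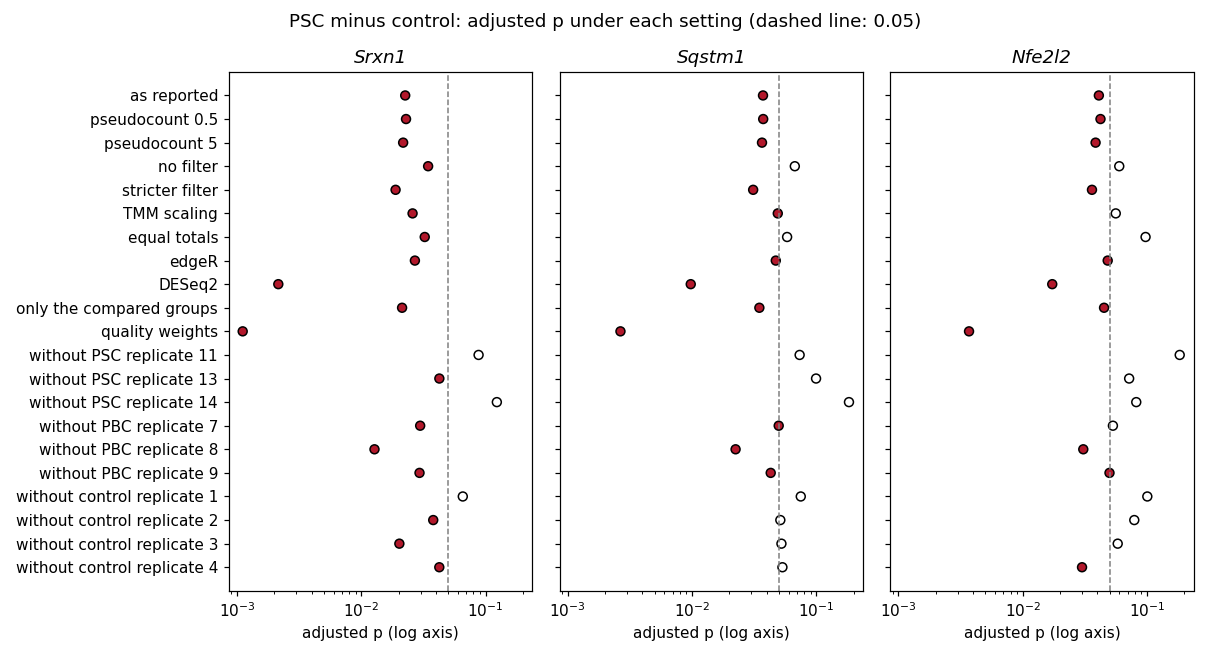
Adjusted p of Srxn1, Sqstm1 and Nfe2l2 in PSC against control, on a log axis, as reported and under each of the 20 other settings, with points under 0.05 filled. Srxn1 has 17 filled points among these settings, Sqstm1 11 and Nfe2l2 10.

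Levels were compared between genes as mean normalised reads per kilobase of annotated exon (GENCODE M21). In PSC livers the order was Sqstm1 (5398), Srxn1 (3298), Nfe2l2 (2573), Gclc (2213), Txnrd1 (1619.5), Gclm (1165), Osgin1 (877), Gsr (616), Nqo1 (494) and Keap1 (384). Control livers ran Sqstm1 (3619), Gclc (3182), Srxn1 (2140.2), Nfe2l2 (1631), Txnrd1 (1561), Gclm (1302), Gsr (855), Osgin1 (691), Nqo1 (537) and Keap1 (489). Gclc, which was next to Sqstm1 in controls, thus came after Srxn1 and Nfe2l2 in PSC livers. In PBC livers the order was Sqstm1 (4815), Gclc (2578), Srxn1 (2289), Nfe2l2 (1881), Txnrd1 (1518), Gclm (1015), Gsr (949), Osgin1 (881), Keap1 (532) and Nqo1 (428). Neighbours in this order had separate ranges in PSC livers only for Sqstm1 over Srxn1, Gclc over Txnrd1, Txnrd1 over Gclm and Nqo1 over Keap1. In PBC livers the separate neighbours were Sqstm1 over Gclc, Srxn1 over Nfe2l2, Nfe2l2 over Txnrd1 and Txnrd1 over Gclm. In controls they were Gclc over Srxn1, Srxn1 over Nfe2l2 and Gclm over Gsr.

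Around these 10 genes, 9 lists with 86 other genes of the pathway were read from the same fit, and 83 genes were tested. In PSC against control 12 of the 83 were called higher (14.5%, where 8.25% of all tested genes were) and 5 lower (6.02%, where 6.48% were), with a median of 0.16. In PBC against control 8 were called higher (9.64%, where 7.6% of all tested genes were) and 1 lower (1.20%, where 2.34% were), with a median of 0.15. In PSC against PBC 1 was called higher and 1 lower (1.20% each, where 1.13% and 1.11% of all tested genes were), with a median of 0.04. Leaving out PSC 11 reduced the PSC counts to 7 higher and 1 lower, and leaving out PSC 14 to 8 and 1. The lower count in PSC was also 2 without PSC 13 or control 1, and the PBC higher count was 4 without PBC 7 and 3 without PBC 9.

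Of the 10 thioredoxins and peroxiredoxins, partners of Txnrd1 and Srxn1, limma, edgeR and DESeq2 called 0 in PSC against control and PBC against control, and 0 had an unadjusted p under 0.05 in either. Over all tested genes limma called 8.25% higher and 6.48% lower in PSC, and 7.6% and 2.34% in PBC. With quality weights limma called 2 of the thioredoxins and peroxiredoxins higher and 1 lower in PSC. That setting called 3899 of all tested genes higher and 3404 lower in PSC. Of 11 autophagy receptors and adaptors, relatives of Sqstm1 in function, limma called 0 higher and 1 lower in PSC, with 3 at an unadjusted p under 0.05 and the same counts by edgeR and DESeq2, where 8.25% of all tested genes were called higher and 6.48% lower. Quality weights gave 5 higher and 3 lower, and 1 was higher without PBC 8. The lower gene was Ulk1, a kinase that starts autophagy, which averaged 1455 ± 152 in PSC, 2769 ± 252 in PBC and 2452 ± 715 in control livers (-0.71, adjusted p = 0.0481). That call was lost without any library but PBC 8 and control 4, and with no filter, equal totals or only the compared groups. Of 11 regulators that include the small MAF proteins, BACH factors and the CUL3 ligase, all 3 tools called 0 in PSC, where 3 had an unadjusted p under 0.05, and 1 in PBC. Without control 3 limma called 2 higher in each comparison with control, and with quality weights it called 2 higher and 3 lower in PSC and 2 higher in PBC. The gene called in PBC was Nfe2l3, a relative of Nfe2l2, with 88.2, 56.6 and 55.9 normalised reads in PSC, 69.6, 115 and 239 in PBC and 41.5, 30.8, 40.9 and 25 in control libraries (1.85 in PBC, adjusted p = 0.0159, or 0.0886 without PBC 9).

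Glutathione synthesis and peroxidase genes, which use the product of Gclc and Gclm, were called higher in PSC in 3 of 8 cases and lower in 0. The shares of all tested genes were 8.25% and 6.48%. Gpx2, a peroxidase best known from gut epithelium, had 151, 129 and 173 normalised reads in PSC 11, 13 and 14, 12.4, 17.5 and 12.7 in PBC 7, 8 and 9, and 2.59, 7.7, 10.2 and 15.3 in controls 1 to 4. All PSC libraries were far above the other 7 (4.12 against control, SE 0.53, adjusted p = 0.000331, and 4.84 with quality weights). Against PBC, Gpx2 was the gene called higher in PSC (3.33, adjusted p = 0.00776, or 0.0667 without PSC 14). Gpx3, the secreted plasma peroxidase, averaged 4209.6 ± 693 in PSC, 1891 ± 729.7 in PBC and 763 ± 219 in control livers and rose by a log2 difference of 2.49 in PSC and 1.26 in PBC (adjusted p = 0.000169 and 0.0168). Its PBC call was lost without PBC 7 or PBC 9 (0.0814 and 0.0869). Gss, which completes glutathione synthesis after the ligase, averaged 8071 ± 96.3 in PSC, 5668 ± 373 in PBC and 5249 ± 1016 in control livers and rose by a log2 difference of 0.64 in PSC (adjusted p = 0.0354), a call lost without any PSC library or control 1, with no filter, TMM scaling or equal totals, and under edgeR. Slc7a11, the cystine importer, was too low to test, with 0 reads in all 4 controls.

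Among glutathione S-transferases, which conjugate glutathione to electrophiles, 2 of 12 were called higher in PSC and 1 lower. These counts stand beside 8.25% and 6.48% of all tested genes. Gsta1 had 3824, 1585 and 2524 normalised reads in PSC 11, 13 and 14, 209, 499 and 391 in PBC 7, 8 and 9, and 38.9, 48.8, 89.4 and 569 in controls 1 to 4. Its PSC difference was 4.63 (SE 0.71, adjusted p = 0.00122), 5.46 without control 4, 3.81 by edgeR, 3.82 by DESeq2 and 5.23 with quality weights, and reads of near-identical family members may be shared. Gstm3 averaged 3936 ± 889 in PSC, 3247 ± 550.0 in PBC and 1995 ± 364 in control livers, with differences of 0.97 in PSC (adjusted p = 0.00892, or 0.0548 without PSC 11) and 0.71 in PBC (adjusted p = 0.0499). The PBC call was lost without any library but control 4 and under 6 other settings. Gstm4 averaged 2384 ± 295 in PSC, 3364 ± 392 in PBC and 4040.3 ± 899.6 in control livers and was lower in PSC (-0.74, adjusted p = 0.0302), a call lost without any PSC library, control 1 or control 3.

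Genes that supply NADPH, the reductant of Gsr and Txnrd1, were called lower in PSC in 2 of 6 cases and higher in 0. Among all tested genes 6.48% were called lower and 8.25% higher. Idh1, the cytosolic isocitrate dehydrogenase, averaged 12246 ± 947 in PSC, 19808 ± 5964 in PBC and 26426 ± 7515 in control livers (-1.07 in PSC, adjusted p = 0.0104, or 0.0545 without PSC 14). Me1, the malic enzyme, averaged 3188 ± 519 in PSC, 4384 ± 499.6 in PBC and 11247 ± 6457 in control livers (-1.62 in PSC, adjusted p = 0.0132, or 0.0619 without PSC 11), and its difference was -0.87 with quality weights. G6pdx, the first enzyme of the pentose phosphate pathway, had 407, 270.1 and 317 normalised reads in PSC 11, 13 and 14, 925, 983 and 969 in PBC 7, 8 and 9, and 321, 381, 585 and 461 in controls 1 to 4. It rose in PBC by a log2 difference of 1.17 against control (adjusted p = 0.00830) and was the gene called lower in PSC against PBC (-1.55, adjusted p = 0.00669).

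Of 14 detoxification genes, the group to which Nqo1 belongs in function, 4 were called higher in PSC and 0 lower, and 2 were called higher in PBC and 1 lower. Over all tested genes the shares were 8.25% and 6.48% in PSC and 7.6% and 2.34% in PBC. Abcc3, a basolateral exporter of bile salts and conjugates in hepatocytes, averaged 13329.5 ± 798 in PSC, 11788 ± 683 in PBC and 6312 ± 767 in control livers and rose by a log2 difference of 1.08 in PSC and 0.91 in PBC (adjusted p = 0.00118 and 0.00420). Cbr3, a carbonyl reductase, averaged 486 ± 98 in PSC, 208 ± 54.1 in PBC and 136 ± 41.8 in control livers and rose by a log2 difference of 1.86 in PSC (adjusted p = 0.00176). None of the 20 other settings ended these calls. Akr1b3, an aldose reductase whose model is merged with a predicted gene, averaged 1501 ± 248 in PSC, 1184 ± 262 in PBC and 608 ± 93.2 in control livers and rose by a log2 difference of 1.30 in PSC and 0.95 in PBC (adjusted p = 0.00208 and 0.0160), the PBC call being lost without PBC 7 or PBC 9. The last genes were named after their values were seen. Ptgr1, a prostaglandin reductase, was higher in PSC (1.02, adjusted p = 0.0121, lost without PSC 11 or PSC 14). Aldh3a2, a fatty aldehyde dehydrogenase, was lower in PBC (-1.55, adjusted p = 0.0383), with overlapping groups, and lost the call without PBC 7, PBC 9, PSC 14, control 1, control 2 or control 4, with equal totals and with only the compared groups.

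Of 7 heme and iron genes, 2 were called higher and 1 lower in PSC, beside 8.25% and 6.48% of all tested genes. Hmox1, the heme oxygenase controlled by both NRF2 and its competitor BACH1, averaged 6178 ± 1528 in PSC, 6866 ± 1341 in PBC and 2335 ± 1027 in control livers, and its differences of 1.46 in PSC and 1.63 in PBC were both called (adjusted p = 0.00559 and 0.00362). Fech, the ferrochelatase whose protein is inhibited after DDC, averaged 4870.2 ± 358 in PSC, 5613 ± 1802 in PBC and 8713 ± 1952 in control livers (-0.82 in PSC, adjusted p = 0.0309), and Slc48a1, a heme transporter, averaged 8794 ± 489.9 in PSC, 7496 ± 1069.9 in PBC and 5938 ± 809 in control livers (0.58 in PSC, adjusted p = 0.0458). Both calls were lost without any single PSC library, control 1 or control 4 and with equal totals, and that of Slc48a1 also without PBC 7 or control 2 and with no filter. Of the superoxide dismutases and catalase 1 of 4 was called higher in each model, where 8.25% (PSC) and 7.6% (PBC) of all tested genes were. It was Sod3, the extracellular dismutase (0.86 in PSC and 1.04 in PBC, adjusted p = 0.0285 and 0.0151). Its PSC call was lost without any PSC library or control 2, and its PBC call without PBC 7 or PBC 9.

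**Figure D5:**
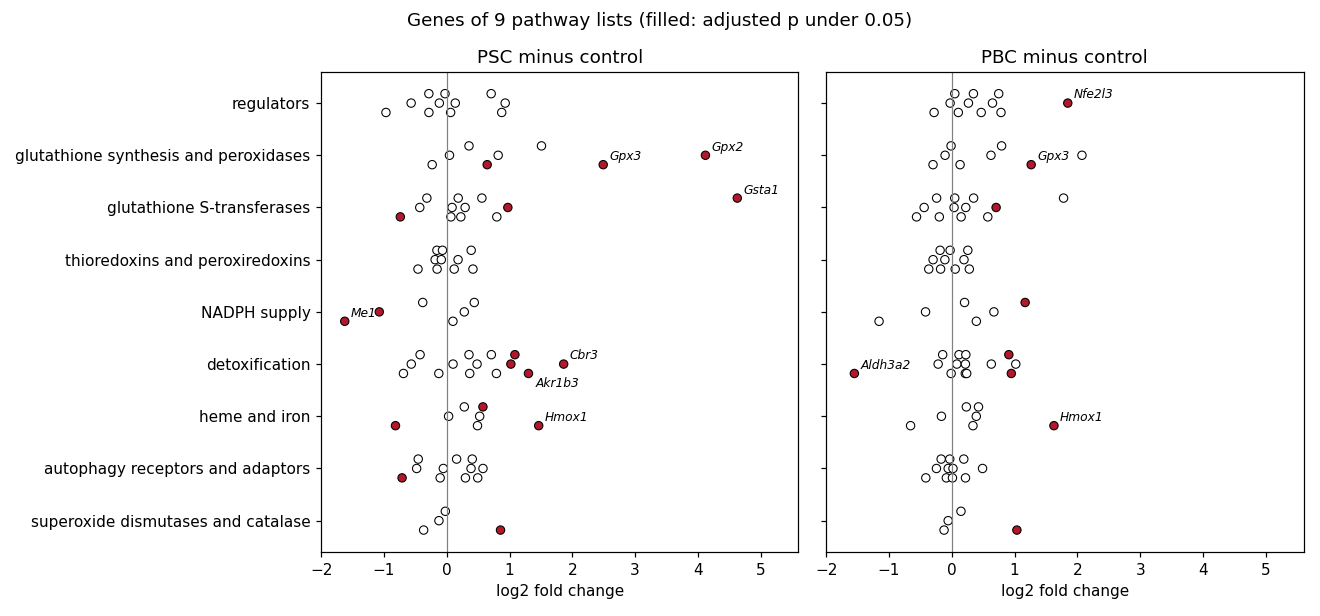
Log2 fold change of each tested gene of the 9 pathway lists in PSC minus control and PBC minus control, 1 row per list, with points filled where the adjusted p was under 0.05. Gsta1, Gpx2 and Gpx3 lie farthest to the right in the left panel, at 4.63, 4.12 and 2.49, and no point of the thioredoxin row is filled.

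Markers of several cell types differed in level between the groups. Over all tested genes, limma called 8.25% higher and 6.48% lower in PSC against control. In PBC against control these shares were 7.6% and 2.34%. Of 7 cholangiocyte markers 6 were called higher in PSC and 2 in PBC (1 by edgeR), with a summed level of 54135 to 94950 in PSC, 10086 to 13597 in PBC and 7693 to 13268 in control livers. Spp1, which macrophages also express, made up 94.1 to 96.6% of this sum in PSC, 88.3 to 91.9% in PBC and 89.9 to 94.6% in control livers. The other 6 markers summed to 3172 to 3229 in PSC, 1096 to 1268 in PBC and 522 to 920.5 in control livers, with the PBC calls in Krt19 and Sox9. For macrophage markers, 5 of 7 in PSC and 6 of 7 in PBC were called higher, with sums of 56197 to 69700 in PSC, 78306 to 107447 in PBC and 21122 to 37092 in control livers. Without C1qa, the highest by mean, they were 30456 to 41044 in PSC, 45304 to 74069 in PBC and 13152 to 22674 in control livers. All 7 neutrophil markers were called higher in both by limma (4 in PSC by edgeR), with sums of 8658 to 15259 in PSC, 36125 to 109579 in PBC and 340 to 6197 in control livers. Without S100a9 they were 3353 to 6025 in PSC, 17300.5 to 52443 in PBC and 131 to 2253 in control livers. Stellate cell and fibroblast markers were called higher in 5 of 6 in PSC and 3 of 6 in PBC, with sums of 41514 to 42925 in PSC, 7567 to 14495 in PBC and 3778 to 6698 in control livers. Without Col3a1 they were 16732 to 19400 in PSC. Those of PBC (4854 to 8027) and control livers (2549 to 4972) then overlapped. T cell markers were called higher in 0 of 5 in PSC and 4 of 5 in PBC, with sums of 365 to 442 in PSC, 1625 to 2101 in PBC and 317 to 600.3 in control livers. Of 5 endothelial markers 1, Kdr, was lower in PSC and 0 were called in PBC, with sums of 5632 to 9109 in PSC, 5501 to 10969.5 in PBC and 7956 to 12951 in control livers. Clec4g made up 86.3 to 89.0% of this sum in PSC, 76.4 to 84.3% in PBC and 82.6 to 93.2% in control livers. Without Clec4g the sums overlapped, at 770 to 1096 in PSC, 990 to 2591 in PBC and 879 to 1948 in control livers. Of 6 hepatocyte markers 1, Hnf4a, was lower in PSC by limma (2 by edgeR and 4 by DESeq2) and 1, Cps1, higher in PBC, and their sum was lower in PSC (5590200 to 6711160) than in PBC (8576460 to 12748200) or control livers (8403650 to 9666040). Alb made up 54.3 to 61.0% of this sum in PSC, 63.1 to 72.5% in PBC and 49.7 to 70.4% in control livers. Without Alb the sums overlapped, at 2177760 to 3065620 in PSC, 2357310 to 4113240 in PBC and 2858770 to 4293840 in control livers. No marker was at 0 in all libraries of a group, and the labelled liver showed its hepatocyte markers throughout. The part of these shifts in the differences of the 10 genes was not tested.

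The genes whose pattern over the 10 libraries was most like that of Nqo1 were found by the root mean square difference of centred log2 levels among 11308 candidates. They were Cryz, a quinone reductase of another family (0.170), Ift52 (0.174), Harbi1 (0.181), Nat2 (0.187) and Colgalt1 (0.188), against a median candidate at 0.514. Of the 10 genes, Gclm came nearest to Nqo1 at 0.257, Txnrd1 followed at 0.339, and Osgin1 lay farthest at 0.669. Nfe2l2 lay at 0.426, Srxn1 at 0.460 and Sqstm1 at 0.496 from Nqo1. Levels were centred but not scaled, so this distance also depends on how widely a gene varied over the libraries.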

How the data were processed

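Poly(A) RNA of liver (RIN above 8) went into stranded libraries that were read as paired 75-base reads on a NextSeq 500, per the labels' protocols. The submitters' processing notes name STAR 2.4.0, SAMtools, Picard, FastQC and DESeq2, and the build mm10. No source used here gives the counter or its strand setting, so overlapping and near-identical genes are uncertain. The deposited signal is the authors' DESeq2-normalised number of reads for each gene model. Values were whole multiples of 1 step per library (100% of low values, tolerance 0.1), which gave back the reads. More models had 2 reads (mean 2263) than 1 (573), so pairs seem to count as 2 reads and counting intervals are too narrow.

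Differences were fitted with limma 3.58.1 (R 4.3.3) with a trend on log2(value + 1), all 10 libraries together, for the 18390 models that reached 10 in 3 or more libraries. P-values were adjusted by Benjamini and Hochberg over all of these, at 0.05. A fold change on this scale understates that of low genes. The script was tested on simulated data whose changes were larger than those called for the 10 genes. That test does not show how often changes of the called size are found. Alternatives were pseudocounts of 0.5 and 5, no filter, a filter at 50, TMM scaling, equal totals, edgeR 4.0.16 and DESeq2 1.42.0 on recovered reads, a fit of the compared groups alone, limma quality weights and leaving out each library. Gene lengths are from GENCODE M21 and promoters from RefSeq.

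The 10 genes and the lists were chosen with earlier results of these data known. All 10 were named, and from each list up to 3 called genes with the smallest adjusted p in PSC and up to 2 in PBC, both against control. Each library was taken as 1 mouse, which the labels' wording implies but no animal identifier shows.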

Additional observations from a re-analysis of the deposited data

Results flagged for a closer look

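Among 30 groups of 4 control libraries, 1 for each named gene, 4 had a library whose gap to the nearest other, as a share of the range, passed Dixon's 95% critical value. Chance flags about 1 in 20 groups. Nfe2l2 was high in control 4, at 7501 normalised reads (share 0.980), against 5735 to 5769.5 in the other controls. Sqstm1 was low in control 3, at 10496.5 (share 0.893), against 12570.1 to 12819 elsewhere. Gsta1 was high in control 4, at 569 (share 0.905), and Idh1 was high in the same library, at 37673 (share 0.921). Without control 4 the PSC difference of Nfe2l2 from control was still called, and without control 3 that of Sqstm1 was 0.51 (adjusted p = 0.0525).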

How the results depend on the processing

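No paired analysis was possible because the groups share no replicate numbers (11, 13 and 14, 7 to 9, and 1 to 4). For the 10 genes, 600 differences were recomputed, of which 563 kept direction and side of the threshold, 22 lost the call, 4 gained it and 11 changed sign. For the other named genes 1091 of 1200 did so, 79 lost it, 26 gained it and 4 changed sign. None of the sign changes was in a called value. With quality weights they were Nqo1 in PSC against control (0.035), Gclc (0.11) and Fech (0.045) in PSC against PBC, and with equal totals Srxn1 in PBC against control (-0.033). Over left-out libraries the PSC differences from control ran from -0.27 to 0.087 for Nqo1 and -0.048 to 0.17 for Txnrd1. The PBC ones ran from -0.14 to 0.076 for Txnrd1 and -0.017 to 0.20 for Gss. PSC minus PBC ran from -0.41 to 0.17 for Gclc, -0.30 to 0.23 for Osgin1, -0.34 to 0.022 for Hmox1 and -0.36 to 0.084 for Fech.

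Counts that moved over 1.5 times were as follows, and the cause was not tested. Of the 10 genes in PSC against control, 1 was higher with no filter or equal totals, and 3 were lower with quality weights. DESeq2 called 1 higher in PSC against PBC. Of pathway genes in PSC against control, quality weights called 30 higher and 13 lower, and equal totals 3 lower. In PBC against control quality weights gave 17 higher and 2 lower, edgeR 2 and DESeq2 3 lower, and equal totals and a fit of 2 groups alone 0 lower. In PSC against PBC the higher count was 2 with a pseudocount of 5, 4 with equal totals and when 2 groups were fitted alone, 6 with DESeq2 and 5 with quality weights, and the lower count was 2 with DESeq2, quality weights and the fit of 2 groups alone.

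Of all genes in PSC against control, quality weights called 3899 higher and 3404 lower, and the lower count was 1929 with DESeq2, 669 with equal totals and 1862 when 2 groups were fitted alone. In PBC against control, quality weights called 2425 higher and 1803 lower, DESeq2 909 lower, equal totals 853 higher, and the fit of 2 groups alone 776 higher and 96 lower. In PSC against PBC, quality weights called 701 higher and 658 lower, DESeq2 623 higher and 590 lower, and equal totals 128 lower. Higher calls were 76.5% of all in PBC against control, but 66.5% with TMM scaling, 64.6% with DESeq2, 57.4% with quality weights, 89.0% with 2 groups alone, 53.4% without PBC 8 and 91.4% without PBC 9. They were 56.0% in PSC against control, but 49.3% with DESeq2, 49.0% with 2 groups alone, 66.9% without control 1 and 73.5% without PSC 14. In PSC against PBC they were 50.5%, but 64.0% with equal totals and 41.3% without PSC 14. Equal totals put the median PBC difference from control at -0.12, against 0.01 as reported.

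Over left-out libraries the 10 genes gave 0 to 3 higher calls in PSC against control and 0 in the other comparisons. In PSC against control, pathway genes gave 7 to 15 higher and 1 to 5 lower, and all genes 680 to 1911 higher and 245 to 1902 lower. In PBC against control, pathway genes gave 3 to 11 higher and 0 to 2 lower, and all genes 673 to 1795 higher and 63 to 1569 lower. In PSC against PBC, pathway genes gave 0 to 2 higher and 1 to 2 lower, and all genes 43 to 303 higher and 61 to 260 lower.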
